A study of Mus musculus with 64 samples.

Results

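The megakaryocyte and platelet genes described here are Pf4, Itga2b, Itgb3, Gp1ba, Gp1bb, Gp9, Gp6, Vwf and Mmrn1, 9 of the 26286 genes in the deposited expression table. They were chosen by symbol as markers of megakaryocytes and platelets, and each matched 1 Ensembl identifier of the table. RNA was sequenced in 64 libraries from 18 mice, from whole tissue and from sorted MEP (megakaryocyte-erythroid progenitors) and SMP cells of spleen and bone marrow. SMP stands for stem and myeloid progenitors, sorted as lineage-negative, Sca-negative and Kit-positive cells that carry CD34 and little CD16/32. The mutant mice were scat/scat, homozygous for the scat allele of Rasa3, on the strain CbyJ.Cby-Rasa3(scat)/Llp, and the control mice were +/+. Partial remission gave 17 libraries of 5 scat/scat mice aged 32 to 58 days, and crisis, which the labels call critical, gave 18 libraries of 3 scat/scat mice aged 23 to 28 days. Young wild-type (WT) controls of the crisis ages gave 18 libraries of 7 mice, and older WT controls of the remission ages gave 10 libraries of 3 mice. A population held 3 libraries per state, except for 2 remission libraries in spleen MEP and 2 older WT libraries (1 in whole spleen and 1 in spleen SMP). The same 3 crisis mice gave all 6 populations, so the populations are not independent of each other. The allele is in every cell of these mice, remission mice are also older than crisis mice, and platelet numbers were not analysed here.

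Megakaryocytes are the large polyploid cells of marrow, and in mice also of spleen, that release platelets into blood. Platelets adhere through the glycoprotein Ib-IX-V complex, which binds von Willebrand factor, and through glycoprotein VI, which binds collagen. They aggregate through integrin alpha-IIb beta-3, the fibrinogen receptor, which the small GTPase Rap1 switches to its binding state. RASA3 switches Rap1 off, and scat mice are known for low platelet numbers beside their anemia. Several of these genes are also transcribed in other cells: Itga2b and Vwf in early blood progenitors, Vwf and Mmrn1 in endothelium, and Itgb3 in macrophages and endothelium.

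The libraries held 33.6 to 107.6 M normalised counts, and 16413 to 19940 genes were above 0. Values below are normalised counts, rescaled so that the libraries of a population share a median. Levels compared across populations are on a scale shared by 63 libraries. Tests are limma's moderated test on log2(value + 1) over all genes with a mean of at least 10, two-sided, with Benjamini-Hochberg adjusted p under 0.05 as the threshold. Nothing in the labels gives separate litters or preparation days, so p-values measure the spread between these mice. Rasa3 itself, whose scat allele changes the protein and so need not change the RNA, stood at 2121, 3335 and 3352 in the crisis whole spleens, against 13420, 12660 and 13060 in young WT (log2 -2.18, SE 0.524, adjusted p = 0.0296). It fell by 0.38 in bone marrow SMP (SE 0.0887, adjusted p = 0.0316) and by 0.95 in spleen SMP (SE 0.267, adjusted p = 0.0286), and did not pass in the other 3 populations. The whole spleen of remission replicate 1 (mouse 2726) held 21050, where the other remission spleens held 4480 and 4973 and the older WT spleen 15890. That library therefore stands apart from its group, and the labels of mouse 27265 (older WT replicate 1, and a whole spleen library in no group) contradict each other. The library in no group held 7096 of Rasa3, 1667 of Itgb3 and 2378 of Vwf, in each case between the other remission spleens and the WT spleens, while remission replicate 1 lay outside the WT spleens on the side away from the other remission spleens for all 3 genes. Whether the whole spleens of these 2 mice were exchanged was not tested, so the remission spleen values hold only as far as the labels do. Changes of a call without these mice, and the remission values without them, are given beside the results.

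The genes lie at separate loci in GRCm38 (GENCODE M21), apart from a shared chromosome. Pf4 is at chr5:90772435-90773383 on the plus strand, 2372 bases from the related platelet chemokine gene Ppbp. Itga2b (chr11:102453297-102470122, minus strand), Itgb3 (chr11:104608000-104670476, plus strand) and Gp1ba (chr11:70639122-70642036, plus strand) share chromosome 11. Gp9 (chr6:87778072-87779768), Vwf (chr6:125546774-125686679) and Mmrn1 (chr6:60924976-60989378) are on the plus strand of chromosome 6, and Gp6 is at chr7:4363965-4397744 on the minus strand. Gp1bb (chr16:18620317-18622403, minus strand) overlaps Sept5 and Gm49601 on the same strand, so its counts are uncertain where reads could belong to either.

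Promoters are shown for Pf4, Itga2b and Gp1bb, whose levels moved together across libraries, and for Gp9, which moved apart from them. Mmrn1 is shown too. For crisis against young WT it passed in more populations than any other member, namely whole bone marrow, bone marrow SMP and spleen SMP. Each promoter runs from 250 bases before to 50 bases after the RefSeq start in GRCm38.p6, written 5′ to 3′ on the gene's strand. Capitals mark GATAA and GGAAG, core letters bound by GATA and ETS factors, on either strand. The windows are chr5:90772185-90772484 (plus strand) for Pf4, chr11:102469834-102470133 (minus) for Itga2b, chr16:18622354-18622653 (minus) for Gp1bb, chr6:87777820-87778119 (plus) for Gp9 and chr6:60944067-60944366 (plus) for Mmrn1, which lies inside the longer GENCODE gene. All but the first bases of the Itga2b window also lie inside its GENCODE gene, which reaches to 102470122. The sequence at the RefSeq start of Gp9 was not matched in a GENCODE transcript of that gene.
Pf4: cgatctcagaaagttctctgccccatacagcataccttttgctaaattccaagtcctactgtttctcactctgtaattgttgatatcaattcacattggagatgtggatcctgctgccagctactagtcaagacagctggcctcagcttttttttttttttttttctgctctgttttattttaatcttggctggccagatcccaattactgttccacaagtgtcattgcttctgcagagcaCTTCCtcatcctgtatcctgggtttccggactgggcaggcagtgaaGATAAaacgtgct
Itga2b: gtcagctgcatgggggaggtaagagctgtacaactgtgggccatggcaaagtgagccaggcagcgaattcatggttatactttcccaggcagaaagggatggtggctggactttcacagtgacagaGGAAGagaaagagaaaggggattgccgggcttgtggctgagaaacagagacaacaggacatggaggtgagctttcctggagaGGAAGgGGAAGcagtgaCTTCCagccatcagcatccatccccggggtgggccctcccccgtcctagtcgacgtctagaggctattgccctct
Gp1bb: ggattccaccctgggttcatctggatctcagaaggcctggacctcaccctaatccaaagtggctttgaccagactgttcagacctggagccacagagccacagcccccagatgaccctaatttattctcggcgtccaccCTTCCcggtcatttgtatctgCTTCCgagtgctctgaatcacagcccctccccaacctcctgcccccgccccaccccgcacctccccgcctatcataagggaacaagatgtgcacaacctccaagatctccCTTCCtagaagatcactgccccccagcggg
Gp9: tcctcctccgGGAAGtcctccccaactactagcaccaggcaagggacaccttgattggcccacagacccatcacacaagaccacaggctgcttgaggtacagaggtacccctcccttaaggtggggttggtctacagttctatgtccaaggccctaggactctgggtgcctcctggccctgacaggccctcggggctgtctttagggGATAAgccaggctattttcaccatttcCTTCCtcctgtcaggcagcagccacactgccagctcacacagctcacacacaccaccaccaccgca
Mmrn1: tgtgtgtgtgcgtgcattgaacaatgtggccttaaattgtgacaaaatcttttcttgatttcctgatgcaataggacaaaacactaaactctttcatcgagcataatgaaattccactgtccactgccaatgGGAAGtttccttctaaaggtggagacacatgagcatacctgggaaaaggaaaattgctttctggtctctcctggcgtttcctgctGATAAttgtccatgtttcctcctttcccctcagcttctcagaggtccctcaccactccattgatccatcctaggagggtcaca

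RefSeq promoters were matched for 7 of the 9 genes, with none for Itgb3 and Vwf. GATAA was found in the windows of Pf4, Gp1ba, Gp9, Gp6 and Mmrn1, and in 8347 of 32851 mouse promoters of the same length (25.4%). GGAAG was found in all 7, and in 23460 of the 32851 (71.4%). The Itga2b window held 4 GGAAG matches and no GATAA, and the Gp1bb window 3 and none. A match describes letters only and is not a measured binding site.

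All of these genes except Gp6 were detected in each population, and most were higher in SMP and whole marrow than in MEP. Pf4, a chemokine of platelet alpha granules, averaged 894 in whole bone marrow in crisis (818 to 1038) and 784 in bone marrow SMP (475 to 1305), whose ranges overlapped. It averaged 431 in whole spleen, 283 in spleen SMP and 21.6 in marrow MEP (12.7 to 26.8), and 1.07 in spleen MEP, where 2 of 3 crisis libraries were at 0. In young WT mice Pf4 averaged 991 in bone marrow SMP, 969 in whole bone marrow, 308 in spleen SMP, 234 in whole spleen, 96.2 in bone marrow MEP and 26.3 in spleen MEP (1.49 to 73.7). In both states the MEP populations were lowest, and neighbours in the order mostly overlapped.

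Itga2b, the alpha subunit of the fibrinogen receptor, was highest in SMP. It averaged 6048 in bone marrow SMP (4433 to 8501) and 2452 in spleen SMP (1102 to 3519) in crisis, against 4784 and 4430 in young WT. Whole bone marrow held 1825 in crisis and 2342 in young WT, whole spleen 1021 and 790, bone marrow MEP 268 and 352, and spleen MEP 108.4 and 160. Itgb3, the beta subunit, ran in another order. It was highest in whole bone marrow (2328 in crisis, 4409 in young WT), and whole spleen held 729 in crisis and 3133 in young WT. SMP held less Itgb3 than whole tissue in young WT, 1646 in bone marrow and 1406 in spleen, and these overlapped. MEP were again lowest, with 27.8 in crisis and 131 in young WT in spleen.

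The 3 chains of the Ib-IX complex did not share a pattern. Gp1ba, which carries the von Willebrand factor site, kept to a narrow range: its group means over the 6 populations ran from 223 (whole spleen) to 567 (bone marrow SMP) in crisis and from 188 (whole spleen) to 513 (whole bone marrow) in young WT. Gp1bb, the small beta chain, averaged 255 in whole bone marrow in crisis and 219 in young WT, but 2.81 and 9.91 in bone marrow MEP and 3.55 and 4.51 in spleen MEP. Gp9, the third subunit, was highest in whole spleen (658 in crisis, 543 in young WT) and stayed well above 0 in MEP. In young WT spleen MEP held 422 (402 to 434) and bone marrow MEP 395, above the 278 of bone marrow SMP (263 to 303) without overlap.

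Gp6, the collagen receptor, was a gene of whole tissue. It averaged 18.2 in whole bone marrow in crisis and 57.7 in young WT, and 17.2 and 14.3 in whole spleen. It was at 0 in all 11 bone marrow MEP and all 10 spleen MEP libraries, and in 8 of 11 bone marrow and 8 of 10 spleen SMP libraries, so it was not tested in sorted cells. Ppbp, a chemokine of mature platelets that is no member here, was low there as well, at most 47.0 in an SMP library, against up to 2353 in whole bone marrow. Vwf, the adhesive protein that bridges collagen and glycoprotein Ib, averaged 2949 in whole spleen and 1939 in bone marrow SMP in crisis, and 1695 and 2274 in young WT. MEP held 510 to 534 in crisis and 594 to 733 in young WT. Mmrn1, multimerin 1, which carries factor V in alpha granules, was highest in bone marrow SMP (873 in crisis, 2023 in young WT). It was lowest in spleen MEP in crisis (5.55) and in whole spleen in young WT (90.1).

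**Figure D1:**
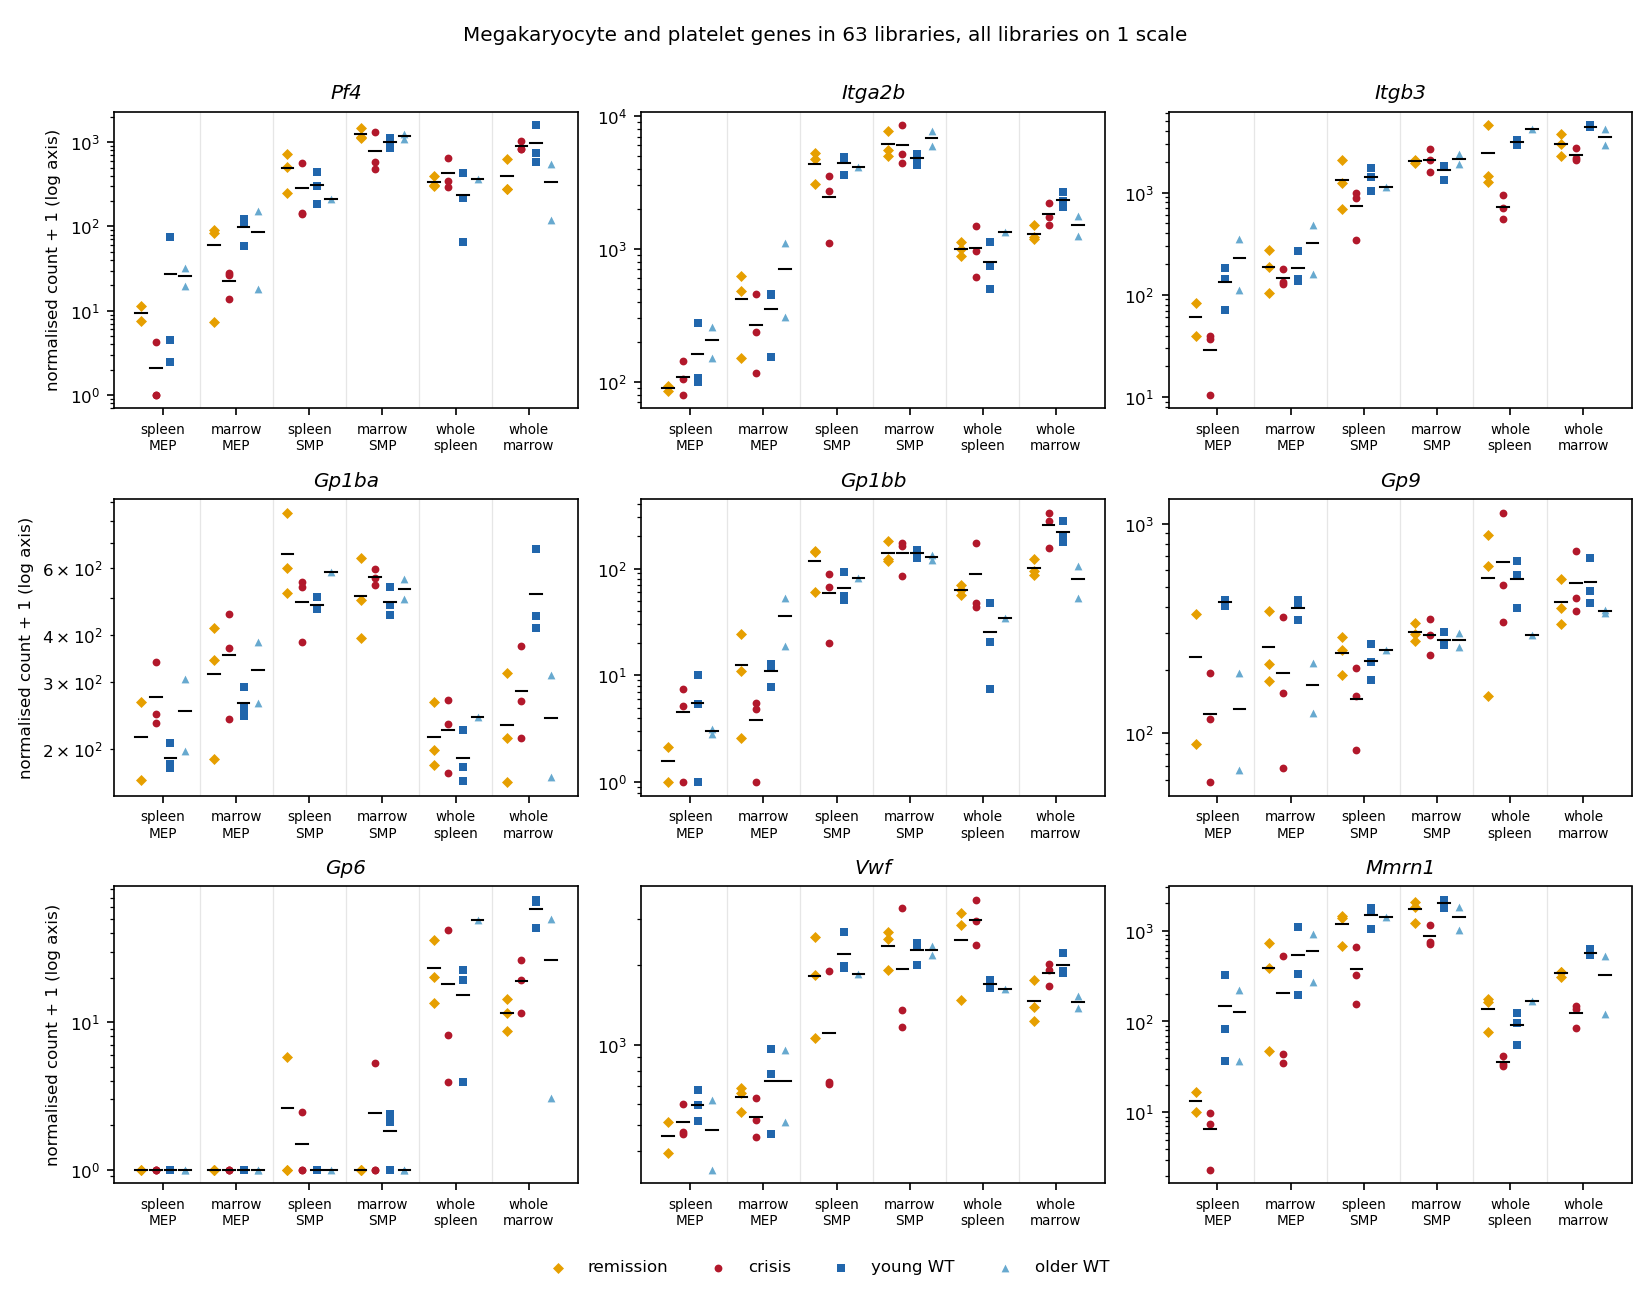
Normalised count + 1 of each gene (log axis, all libraries on 1 scale) in 63 libraries by population and state; points are libraries and bars group means. Pf4, Itga2b, Itgb3, Gp1bb and Mmrn1 lie lower in MEP than in SMP of the same tissue, while Gp9 stays at 345.6 to 433.6 in the young WT MEP libraries and Gp6 is at 0 in all MEP libraries.

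Per kilobase of exon, which allows levels of different genes to be compared, Pf4 led in whole bone marrow, with 1240 in crisis and 1343 in young WT. In bone marrow SMP Itga2b (1109) and Pf4 (1088) led in crisis, and Pf4 (1374) and Itga2b (877) in young WT. Gp9 led per kilobase in MEP, with 139 in crisis and 479 in young WT in spleen MEP. Gp6 was lowest in each population in both states, at 9.77 or less per kilobase in the group means.

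In the direct comparison of sorted cells, most members were lower in MEP than in SMP. In young WT bone marrow Itga2b held 458, 153 and 445 in MEP, against 4916, 4249 and 5186 in SMP, a log2 difference of -3.86 (SE 0.495, adjusted p = 4.2e-06). Itgb3 held 136, 142 and 265 in MEP, against 1797, 1320 and 1820 in SMP (log2 -3.17, SE 0.334, adjusted p = 3.49e-07). Neither gene overlapped between the populations. Pf4 (-3.35), Gp1bb (-3.64), Vwf (-1.63), Gp1ba (-0.83) and Mmrn1 (-2.22) were also lower in MEP, and 7 of 8 tested members passed, all downward. Of all genes tested 70.4% passed in this comparison (36.4% downward), so a passing gene is the common case there. Gp9 was the exception, with 430, 408 and 346 in MEP, against 263, 303 and 268 in SMP (log2 0.56, SE 0.360, adjusted p = 0.172). Its MEP libraries all lay above its SMP libraries, yet it did not pass.

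The spleen gave a like picture in young WT, where 7 of 8 tested members fell in MEP and 64% of all genes passed (34.4% downward). Itga2b differed by -4.91 (SE 0.444, adjusted p = 2.67e-06), Pf4 by -4.92, Gp1bb by -4.06, Mmrn1 by -3.84, Itgb3 by -3.46, Vwf by -1.85 and Gp1ba by -1.32. Gp9 was at 429, 402 and 434 in MEP and at 179, 266 and 219 in SMP (log2 0.97, SE 0.550, adjusted p = 0.133). The young WT mice of spleen SMP were not those of spleen MEP, so mouse and population cannot be told apart in this comparison. In crisis 8 of 8 tested members were lower in bone marrow MEP than in SMP (67.9% of all genes passed, 35% downward) and 7 of 8 in spleen (43.4%, 26.1% downward). Mmrn1 held 6.46, 1.34 and 8.85 in spleen MEP in crisis, against 664, 154 and 322 in spleen SMP (log2 -5.84, SE 0.642, adjusted p = 4.49e-06). Pf4 held 3.22, 0 and 0 there, against 569, 139 and 142 (log2 -7.12, SE 0.793, adjusted p = 4.98e-06), a size that depends on the 1 added before the logarithm. Gp9 in crisis held 359, 154 and 67.5 in bone marrow MEP, against 350, 235 and 295 in SMP (log2 -0.87, SE 0.360, adjusted p = 0.0402). It passed although the libraries overlapped, and did not pass without the mouse as a block.

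Pf4, Itga2b, Itgb3 and Gp1bb passed in all 4 comparisons under each of 8 alternatives, 6 of which left out 1 library each. The young WT call of Mmrn1 in marrow passed in only 2 of the 8: it was lost without MEP replicate 1 or 2 or SMP replicate 1 or 2, without the mouse as a block and on the deposited scale (log2 -2.42 to -1.66, adjusted p 0.053 to 0.133). The crisis call of Gp9 in marrow was lost without MEP replicate 2 or 3 or SMP replicate 1 or 3 (-0.90 to -0.26, adjusted p 0.0809 to 0.466). In crisis the call of Vwf in spleen was lost without MEP replicate 1 or 2 or SMP replicate 1 and without the mouse as a block (-0.95 to -0.42, adjusted p 0.0587 to 0.185). That of Gp1ba was lost in spleen without MEP replicate 2 or SMP replicate 3 and on the deposited scale (-1.03 to -0.78, adjusted p 0.0546 to 0.0672), and in marrow without MEP replicate 1 (-0.46, adjusted p = 0.0954).

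**Figure D2:**
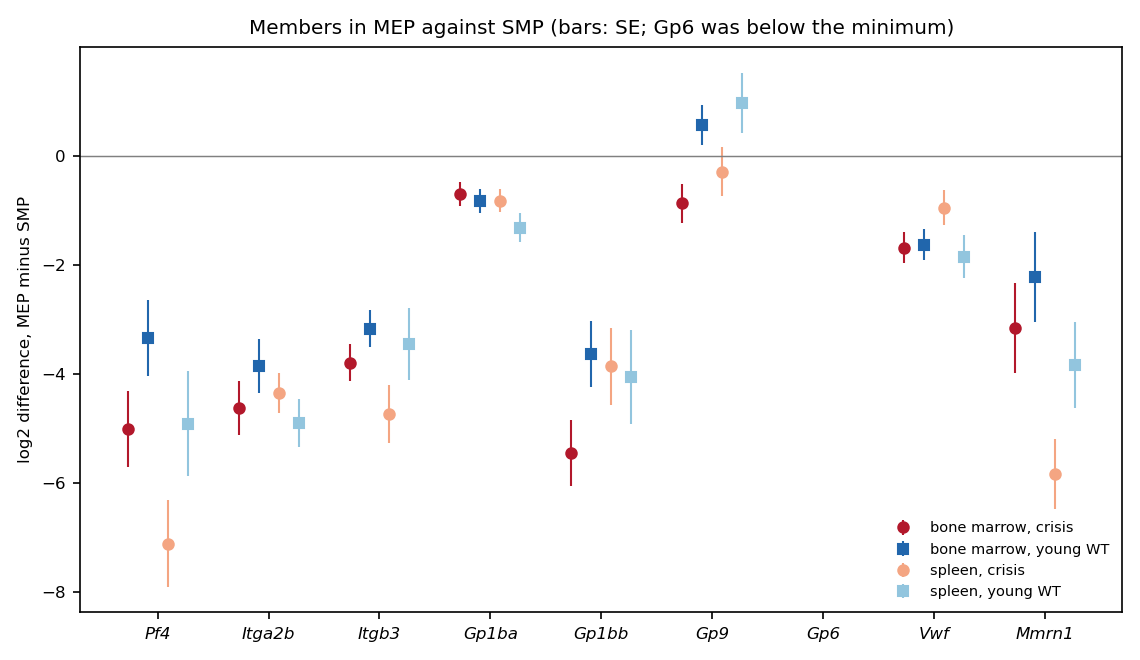
Log2 difference of MEP minus SMP for each gene in bone marrow and spleen, in crisis and in young WT (points; bars are SE of limma). The points of Pf4, Itga2b, Itgb3, Gp1bb and Mmrn1 lie between -7.12 and -2.22, those of Gp1ba between -1.32 and -0.71, and Gp9 lies above 0 in young WT (0.56 and 0.97) and below 0 in crisis (-0.87 and -0.29).

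The erythroid and stem cell lists, given as a check of the gates, separated the sorted cells as the labels would have it. In young WT bone marrow all 12 erythroid genes were higher in MEP (median log2 3.99), and 10 of 11 tested stem cell genes were lower (median -2.99). The other megakaryocyte lists moved mostly with the members: of the 20 other surface receptors 16 fell and 1 rose in bone marrow MEP against SMP in young WT (median -3.21 over 19 tested), and of the 20 granule and secreted proteins 18 fell (median -2.92 over 19 tested). The 16 megakaryocyte transcription factors split, with 5 higher and 9 lower in MEP (median -1.23), against a median of -0.07 over all genes. Of all genes tested 36.4% fell and 34% rose in that comparison.

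Between tissues in young WT, whole spleen held less of 5 of the 9 members than whole bone marrow, where 17.2% of all genes passed (9.82% downward). Gp1bb was at 6.46, 19.6 and 46.9 in whole spleens, against 204, 276 and 176 in whole bone marrows, with no overlap (log2 -3.67, SE 0.531, adjusted p = 0.000127). Mmrn1 (-2.76, SE 0.408, adjusted p = 0.000148), Pf4 (-2.47), Itga2b (-1.72) and Gp1ba (-1.45) fell as well. Gp6 was at -2.41 (SE 0.858, adjusted p = 0.0654), while Itgb3 (-0.52), Vwf (-0.26) and Gp9 (-0.02) did not pass. In sorted cells no member passed between spleen and marrow: 0 of 7 in MEP, where 0% of all genes passed and 2475 had an unadjusted p under 0.05, and 0 of 8 in SMP, where 0.461% passed. The values of Pf4 were -3.25 in MEP (SE 0.878, adjusted p = 0.185) and -1.75 in SMP (SE 0.459, adjusted p = 0.0879). Without spleen MEP young WT replicate 3, whose Pf4 was high, Pf4 passed in MEP (-4.59), where 25 genes passed in all.

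In whole bone marrow in crisis, Mmrn1 and Itgb3 fell, and the other 7 members did not pass. Mmrn1 held 149, 130 and 81.4 in crisis, against 547, 613 and 538 in young WT. All crisis libraries lay below all young WT libraries (log2 -2.27, SE 0.433, adjusted p = 0.0262). Itgb3 held 2736, 2079 and 2009 in crisis, against 4531, 4242 and 4327 in young WT, again without overlap (log2 -0.95, SE 0.193, adjusted p = 0.027). These are 2 of 9 members, with 8.59% of all genes called in this comparison (5.08% downward). In RNA of a whole tissue, fewer cells of a type and less RNA per cell cannot be told apart. Gp1ba (214, 252 and 362 in crisis, against 417, 659 and 445 in young WT) and Gp6 (10.6, 17.4 and 24.7, against 63.9, 64.7 and 42.5) did not overlap either, but did not pass (log2 -0.88, adjusted p = 0.122, and -1.69, adjusted p = 0.245). Pf4 (-0.01, SE 0.5525), Gp1bb (0.15, SE 0.371), Gp9 (-0.06, SE 0.295) and Vwf (-0.12, SE 0.162) stood near 0, and Itga2b was at -0.39 (SE 0.186, adjusted p = 0.218). Of all genes tested, 17.6% lay wholly below young WT in crisis, as 4 of the 9 members did.

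Both calls in whole bone marrow were lost without crisis replicate 2 or 3 or without any 1 of the 3 young WT libraries. Over these 5 fits Itgb3 stood at -0.98 to -0.87 (adjusted p 0.0688 to 0.118) and Mmrn1 at -2.34 to -2.01 (adjusted p 0.0688 to 0.117), so the direction held and the call did not. Both were also lost without trended and robust variances (adjusted p = 0.0587 for Itgb3 and 0.0559 for Mmrn1), that of Itgb3 on the deposited values without rescaling (0.102) and that of Mmrn1 with older WT added to the controls (-1.78, 0.055). Over all 17 alternatives the adjusted p ran from 0.0065 to 0.118 for Itgb3 and from 0.00375 to 0.117 for Mmrn1. Without mice 2726 and 27265 Gp6 passed as well (-1.69), and with libraries scaled to equal totals, which shifted the median of all genes by -0.259, Gp1ba did (-1.16). With equal totals 2866 genes passed in all, against 1386 in the main fit.

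In whole spleen in crisis Itgb3 fell by 2.12, to 701, 558 and 947, against 2936, 3199 and 3234 in young WT (SE 0.4205, adjusted p = 0.0228). It was the 1 member of 9 to pass, where 15.2% of all genes were called (12.4% downward). Vwf had a value of the other sign, with 3531, 3000 and 2401 in crisis, against 1655, 1689 and 1726 in young WT. The groups did not overlap, as for 28.3% of all genes that lay wholly above young WT, and the difference did not pass (log2 0.80, SE 0.310, adjusted p = 0.102). Mmrn1 was at 40.8, 33.8 and 31.3 in crisis, against 54.4, 122 and 93.0 in young WT, also without overlap (log2 -1.26, SE 0.460, adjusted p = 0.0887), where 29.9% of all genes lay wholly below. Gp1bb (46.6, 43.3 and 175 in crisis, against 6.53, 19.6 and 46.0 in young WT) and Pf4 (343, 301 and 661, against 64.6, 214 and 416) were at log2 1.89 (SE 0.761, adjusted p = 0.112) and 1.18 (SE 0.617, adjusted p = 0.192), with overlap. Itga2b (0.38), Gp1ba (0.25), Gp9 (0.14) and Gp6 (-0.09) had SEs of 0.3 to 1.02 and did not pass.

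The call of Itgb3 in whole spleen was lost without any 1 of the 6 crisis and young WT libraries (-2.31 to -1.92, adjusted p 0.0566 to 0.102). It was also lost with a covariate for libraries whose low values were multiples of 1 step size (-2.16, adjusted p = 0.0753, against a range of 1.65e-05 to 0.102 over all 17 alternatives), where 0 genes passed in all. Without mouse 2726 (remission replicate 1), which is in neither group but enters the shared estimate of spread, Vwf (0.79) and Mmrn1 (-1.26) passed beside it. In that fit 7729 genes passed in all, against 2445 in the main fit.

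Marker lists of other cell types moved beside these changes. Their counts are to be read against all genes tested. Of these, 5.08% fell and 3.52% rose in whole bone marrow, and 12.4% fell and 2.8% rose in whole spleen. The summed B cell list ran from 6548 to 74620 in crisis and from 130800 to 150500 in young WT in whole bone marrow, and from 7903 to 18830 and from 127000 to 146800 in whole spleen. The T and NK cell list ran from 3706 to 6721 in crisis and from 32160 to 47760 in young WT in whole spleen, where 12 of 12 of its genes fell, but from 4152 to 6211 in crisis and from 4664 to 5119 in young WT in whole bone marrow, where 0 of 12 passed. The endothelium list ran from 4448 to 6760 in crisis and from 8826 to 12400 in young WT in whole spleen, where 1 of its 11 tested genes fell, and from 5494 to 6644 and from 7533 to 10380 in whole bone marrow, where 2 of 12 fell. The macrophage and monocyte list ran from 41560 to 64900 in crisis and from 30960 to 36560 in young WT in whole bone marrow, where 3 of 12 rose, and overlapped in whole spleen (30010 to 105800, against 55520 to 101100). The erythroid list was higher in crisis without overlap in both tissues, with 5 of 12 genes risen in marrow and 0 in spleen. The part of these cells in the fall of Itgb3 and Mmrn1 was not tested.

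**Figure D3:**
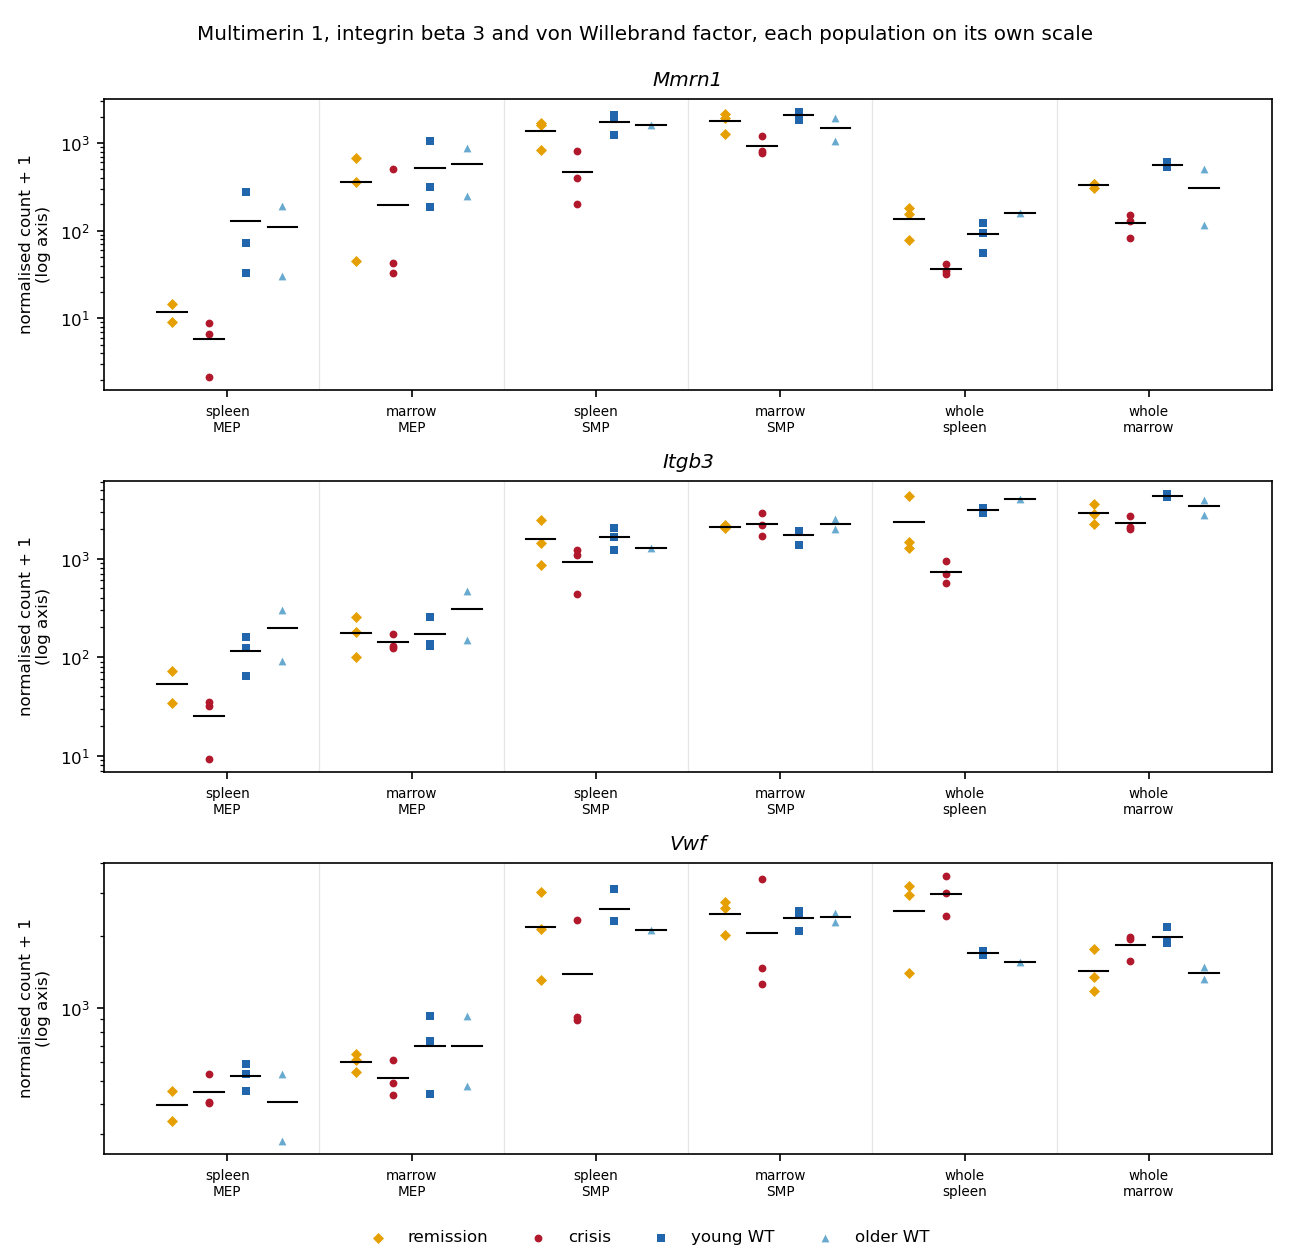
Normalised count + 1 (log axis, each population on its own scale) of Mmrn1, Itgb3 and Vwf by population and state; points are libraries and bars group means. Mmrn1 in crisis lies below all young WT libraries in whole bone marrow (at most 149.2 against at least 537.8) and in both SMP populations, and Vwf in whole spleen lies above them (at least 2401 against at most 1726).

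In MEP no member passed in crisis. In bone marrow this was 0 of 8 tested, where 0.00693% of all genes (1 gene) passed and 1840 had an unadjusted p under 0.05. In spleen it was 0 of 7, where 0.0366% passed (5 genes) and 2687 had an unadjusted p under 0.05. The values in spleen MEP were nevertheless far apart for 3 members. Mmrn1 was at 5.63, 1.16 and 7.91 in crisis, against 32.0, 71.7 and 278 in young WT (log2 -4.12, SE 0.929, adjusted p = 0.117). Itgb3 was at 8.27, 30.8 and 34.1, against 62.6, 160 and 123 in young WT (log2 -2.31, SE 0.650, adjusted p = 0.149). Gp9 was at 169, 100.2 and 51.3, against 385, 353 and 376 (log2 -1.95, SE 0.602, adjusted p = 0.161). None of the 3 overlapped between the groups, and 14.9% of all genes lay wholly below young WT there. Gp1ba lay wholly above young WT in spleen MEP (203 to 302.4 in crisis, against 153.4 to 180.8), as 13.5% of all genes did. On the deposited values without rescaling Mmrn1, Itgb3 and Gp9 passed, where 304 genes passed in all. That scale adds a shift of 0.19 to the median of all genes there. With older WT added to the controls Mmrn1 passed (-4.04). In bone marrow MEP Mmrn1 spread widely in both groups (510, 31.9 and 41.9 in crisis, against 313, 186 and 1043), and Pf4 was at 25.8, 12.03 and 24.5, against 103, 54.9 and 116 (log2 -2.09, SE 1.01, adjusted p = 0.408).

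In SMP of both tissues Mmrn1 fell, and it was the 1 of 8 tested members that passed in each. In bone marrow SMP it held 1205, 777 and 808 in crisis, against 1840, 2230 and 2266 in young WT (log2 -1.21, SE 0.253, adjusted p = 0.0265), where 7.52% of all genes passed. In spleen SMP it held 813, 198 and 397, against 2061, 1929 and 1218 (log2 -2.08, SE 0.471, adjusted p = 0.0218), where 31% passed. The groups did not overlap in either tissue, while all genes lying wholly below young WT made up 15% in the marrow cells and 24.7% in the spleen cells. The fibrinogen receptor genes passed in neither tissue, and the difference of their crisis effect between the tissues did not pass either. Itga2b was at 4623, 5632 and 9232 in bone marrow SMP in crisis, against 5104, 4448 and 5420 in young WT (log2 0.32), and at 4313, 1422 and 3378 in spleen SMP, against 4140, 5589 and 5792 (log2 -0.90, SE 0.362, adjusted p = 0.0789). Itgb3 was at 0.37 in bone marrow (SE 0.181, adjusted p = 0.213) and -0.94 in spleen (SE 0.442, adjusted p = 0.12). Vwf was at 3437, 1261 and 1470 in bone marrow SMP in crisis, against 2088, 2540 and 2491 in young WT. Crisis replicate 1 lay above all young WT libraries and the other 2 below them (log2 -0.35, SE 0.305, adjusted p = 0.498). In spleen SMP Vwf was at 2327, 922 and 892, against 2299, 3118 and 2304 (log2 -1.04, SE 0.389, adjusted p = 0.0633), again with replicate 1 apart. Pf4 stood at -0.44 in bone marrow and -0.27 in spleen, Gp1ba, Gp1bb and Gp9 lay between -0.59 and 0.25, and none passed. In bone marrow SMP Gp1ba lay wholly above young WT (585.2 to 646.8 in crisis, against 470.9 to 558), as 15.2% of all genes did.

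The call of Mmrn1 was lost in bone marrow SMP without crisis replicate 2 or 3 or any 1 young WT library (-1.30 to -1.09, adjusted p 0.069 to 0.109), and in spleen SMP without any 1 young WT library (-2.32 to -1.93, adjusted p 0.0605 to 0.069). In bone marrow SMP it was also lost on the deposited values without rescaling (-1.09, adjusted p = 0.124) and without trended and robust variances (adjusted p = 0.0625), over a range of 0.00719 to 0.124 for all 17 alternatives. Without crisis replicate 1, Pf4 (-0.86) and Vwf (-0.80) passed beside it in bone marrow SMP, and Itga2b (-1.22) and Vwf (-1.49) in spleen SMP. Calls rose over all genes in these fits, to 3167 in bone marrow SMP (1148 in the main fit) and 6391 in spleen SMP (4795 in the main fit).

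Erythroid and stem cell markers moved in SMP as well. The summed erythroid list ran from 145100 to 238100 in crisis and from 40830 to 63790 in young WT in bone marrow SMP, and from 404000 to 1038000 and from 116800 to 334100 in spleen SMP. The stem cell list ran from 53710 to 59220 in crisis and from 75670 to 83370 in young WT in bone marrow SMP, and from 19040 to 39850 and from 53230 to 78540 in spleen SMP. Endothelium markers fell in 8 of 12 genes in spleen SMP, where 14.8% of all genes fell. Their part in the members' values was not tested.

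**Figure D4:**
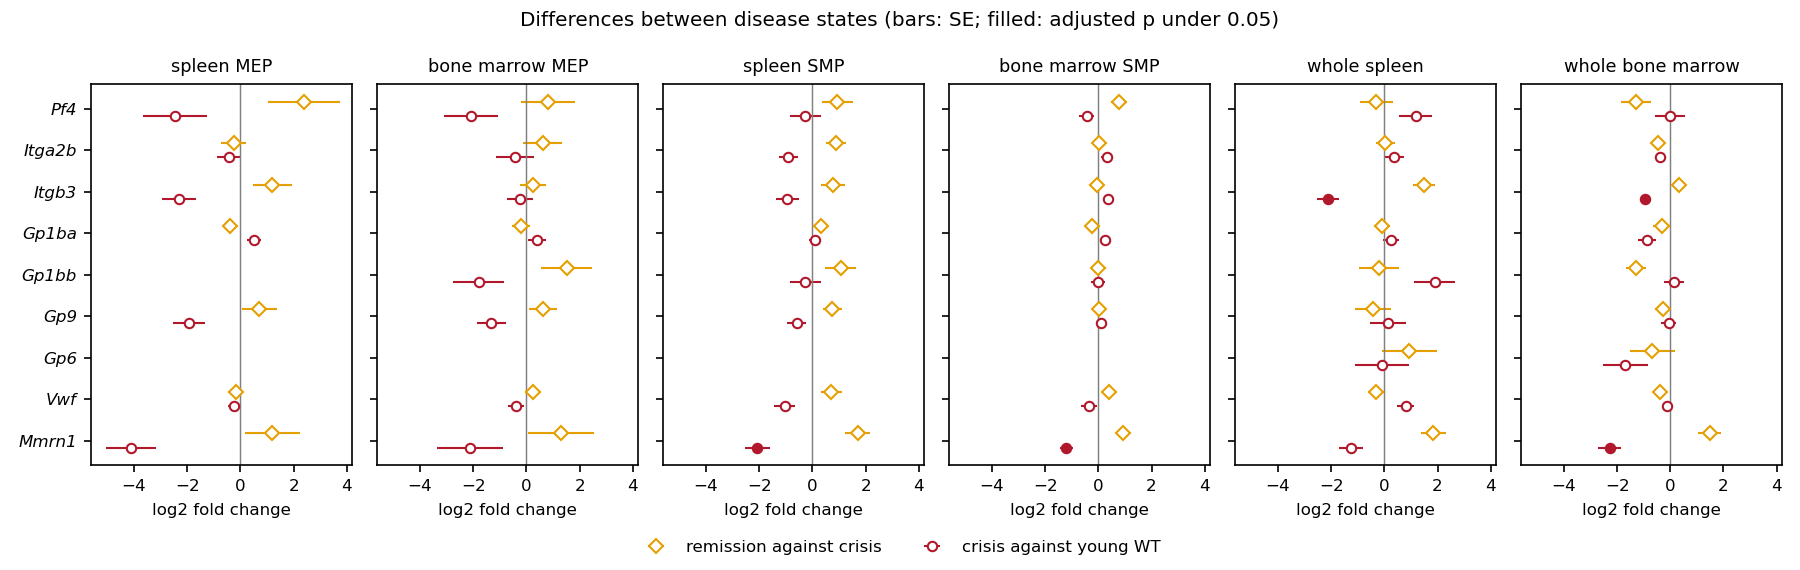
Log2 fold change of each gene for remission against crisis (diamonds) and crisis against young WT (circles) in the 6 populations; bars are SE of limma and filled points passed at an adjusted p under 0.05. Filled points are Itgb3 in whole spleen (-2.12) and whole bone marrow (-0.95) and Mmrn1 in whole bone marrow (-2.27), bone marrow SMP (-1.21) and spleen SMP (-2.08), all for crisis against young WT.

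The other genes of the pathway, from 5 lists of 16 to 20 genes, are given by list. They are to be read against all genes tested, of which 5.08% fell and 3.52% rose in whole bone marrow, 12.4% fell and 2.8% rose in whole spleen, 3.79% fell and 3.74% rose in bone marrow SMP, and 14.8% fell and 16.2% rose in spleen SMP. The medians of all genes lay between -0.05 and 0.01 in these comparisons. Of the 20 other surface receptors, 1 fell in crisis in whole bone marrow (median log2 -0.71) and 4 fell in whole spleen (-0.54). In SMP 2 fell in marrow (-0.39) and 10 fell in spleen (-1.33), and none rose in any of these. Tbxa2r, the thromboxane receptor, fell by 1.22 in whole bone marrow (169 ± 43.3 in crisis, 386 ± 56.0 in young WT, SD, n = 3 each; limma adjusted p = 0.0262) and by 2.47 in whole spleen (limma adjusted p = 0.0243). Cd226 and Itga6, adhesion receptors also carried by lymphocytes, fell in whole spleen (log2 -3.12 and -2.2). P2rx1, an ATP-gated channel of platelets, fell in SMP of bone marrow (-0.70) and spleen (-1.88), with the ADP receptor gene P2ry12 (-2.05) and the junction gene Esam (-2.16) in spleen SMP. Pear1, a platelet receptor, fell by 0.58 in bone marrow SMP.

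Of the 20 granule and secreted proteins, 0 passed in whole bone marrow and 3 fell in whole spleen (median -0.55), a share near the 12.4% of all genes, while in SMP 2 fell in marrow (-0.25) and 8 fell in spleen (-1.22). Nbeal2, which is needed to form alpha granules, fell in whole spleen (-1.58), in marrow SMP (-0.58) and in spleen SMP (-1.89, to 3219 ± 1860 in crisis, against 10720 ± 1393 in young WT, SD, n = 3 each; limma adjusted p = 0.0217). Gas6, a secreted ligand of TAM receptors, fell by 1.74 in bone marrow SMP and by 2.17 in spleen SMP, and Sparc, a matrix protein, fell by 3.04 in spleen SMP. Pdgfa (-2.58) and Prkcd (-1.62) fell in whole spleen. Of the 20 cytoskeleton genes, Tuba4a rose in whole bone marrow (0.78), 5 fell in whole spleen, led by Tpm4 (-2.06), Wipf1 (-1.95) and Actn1 (-1.71), and 2 rose and 7 fell in spleen SMP, led by Mylk (-1.99), Tpm4 (-1.58) and Zyx (-1.28).

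The 16 megakaryocyte transcription factors moved in both directions. Nfe2, which also acts in erythroid cells, rose by 0.98 in whole bone marrow, and Fli1, an ETS factor that lymphocytes also carry, fell by 2.35 in whole spleen. Gata1, shared by megakaryocytes and erythroid cells, rose by 0.92 in bone marrow SMP (4118 ± 715.7 in crisis, 2168 ± 282 in young WT, SD, n = 3 each; limma adjusted p = 0.0223). Erg and Meis1, which act in stem cells too, fell there (-0.67 and -0.64) and in spleen SMP (-1.74 for Erg, -1.645 for Meis1), where Mecom fell too (-1.74). In all, 2 rose and 5 fell in bone marrow SMP and 2 rose and 8 fell in spleen SMP. Of the 20 genes of thrombopoietin, collagen and integrin signalling, 1 rose and 5 fell in whole bone marrow, and 7 fell in whole spleen. In SMP 2 fell in marrow, Rasa3 among them, and 1 rose and 9 fell in spleen (all genes: 5.08%, 12.4%, 3.79% and 14.8% downward). Rasgrp2, which activates Rap1 in platelets, fell by 0.80 in whole bone marrow, 2.67 in whole spleen and 1.69 in spleen SMP. Prkca fell by 1.30 in whole bone marrow and by 0.55 in bone marrow SMP, Syk by 1.21 in whole bone marrow, Lat by 3.19 and Plcg2 by 2.31 in whole spleen, and Alox12 by 2.73 and Plcg2 by 1.40 in spleen SMP. In MEP 0 of the genes in these 5 lists passed in either tissue; the unadjusted counts over all genes there were 1840 and 2687.

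The crisis effect was compared between the tissues by its interaction term, spleen minus bone marrow, and no member passed. In whole tissue 0 of 9 passed (10.4% of all genes did, and 4525 had an unadjusted p under 0.05). The values were 0.90 for Vwf (SE 0.282, adjusted p = 0.0517), 1.12 for Gp1ba (SE 0.371, adjusted p = 0.064) and -1.18 for Itgb3 (SE 0.416, adjusted p = 0.0788). Of the 9 values 8 were above 0, where the median of all genes was 0.004. The members were measured in the same libraries, so this count is not a test of the set. All 3 passed without mice 2726 and 27265 (Vwf 0.88, Gp1ba 1.10, Itgb3 -1.20). In that fit 4764 genes passed in all, against 1696 in the main fit. Vwf also passed without whole spleen crisis replicate 3, and Gp1bb without whole spleen young WT replicate 3 (2.39). Over the fits that left out 1 library, 766 to 1591 genes passed. In MEP 0 of 7 passed, with 0% of all genes called and 696 at an unadjusted p under 0.05, and in SMP 0 of 8, with 0.0195% called and 4757 at an unadjusted p under 0.05. Itga2b (-1.23, SE 0.440, adjusted p = 0.0846) and Itgb3 (-1.32, SE 0.457, adjusted p = 0.0798) were the members with the smallest adjusted p in SMP.

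In remission no member passed against crisis or against older WT in any population. Against crisis the percentages of all genes called were 0% in whole bone marrow (2536 at an unadjusted p under 0.05) and 0% in whole spleen (3242). For MEP they were 0.00693% in marrow and 0% in spleen (951), and for SMP 1.25% in marrow and 0% in spleen (3220). Remission and crisis share no mice, but this comparison shares the crisis libraries with that of crisis and young WT, so a fall in one and a rise in the other are not separate evidence. Mmrn1 was at 338, 340 and 307 in whole bone marrow in remission, against 149, 130 and 81.4 in crisis (log2 1.49, SE 0.433, adjusted p = 0.169). It was at 153, 76.9 and 180 in whole spleen, against 40.8, 33.8 and 31.3 (log2 1.84, SE 0.460, adjusted p = 0.133), and at 2130, 1932 and 1270 in bone marrow SMP, against 1205, 777 and 808 (log2 0.93, SE 0.253, adjusted p = 0.0784). Remission lay above crisis without overlap in all 3, as did 8.79% of all genes in whole bone marrow, 16.1% in whole spleen and 11.4% in bone marrow SMP. Without mice 2726 and 27265 the values were 1.47, 1.71 and 0.78 in the same order, and none passed. In spleen SMP Mmrn1 was at 1611, 825 and 1712, against 813, 198 and 397 (log2 1.71, SE 0.471, adjusted p = 0.197). These did not overlap either (825 against 813 at the closest), where 8.66% of all genes lay wholly above crisis. In spleen MEP Mmrn1 was at 7.995 and 13.8, against 5.63, 1.16 and 7.91, where 11.2% of all genes lay wholly above crisis.

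Itgb3 in whole spleen was at 4310, 1287 and 1489 in remission, against 701, 558 and 947 in crisis (log2 1.49, SE 0.4205, adjusted p = 0.14). The 4310 is replicate 1, the library that stands apart, and without it Itgb3 passed (log2 0.94). In that fit 521 genes passed in all, against 0 in the main fit. Pf4 and Gp1bb had values of the other sign in whole bone marrow. Pf4 was at 264, 267 and 634 in remission, against 833, 773 and 1007 in crisis (log2 -1.29, SE 0.553, adjusted p = 0.292), and Gp1bb at 81.6, 91.0 and 121, against 335, 145 and 272 (log2 -1.28, SE 0.371, adjusted p = 0.168), both without overlap, as 8.84% of all genes lay wholly below crisis. Without mice 2726 and 27265 they were at -1.07 and -1.16. The older WT marrows held 116 (replicate 1, mouse 27265, whose labels contradict each other) and 524 of Pf4, against 585.5 to 1545 in young WT. Of Gp1bb they held 50.45 to 100 (mean 75.2), against 174.7 to 269.6 in young WT. The part of age was not tested. In SMP the outcome turned on crisis replicate 1. Without it Pf4 (1.19), Vwf (0.84) and Mmrn1 (1.13) rose in remission against crisis in bone marrow SMP, and Itga2b (1.21), Vwf (1.17) and Mmrn1 (2.22) in spleen SMP. Calls rose over all genes in these fits, to 2716 in bone marrow SMP (190 in the main fit) and 1934 in spleen SMP (0 in the main fit).

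Against older WT the percentages called were 0% in whole bone marrow (185 at an unadjusted p under 0.05) and 0% in whole spleen (129). For MEP they were 0% in marrow (201) and 0% in spleen (574), and for SMP 0% in marrow (195) and 0.0129% in spleen. In bone marrow SMP all 8 tested members lay between -0.18 and 0.28, with SEs of 0.190 to 0.341, and between -0.29 and 0.12 without mice 2726 and 27265. In whole spleen Itgb3 was at 4310, 1287 and 1489 in remission, against 3995 in the 1 older WT library, and Vwf at 1401, 3214 and 2938, against 1553. Without remission replicate 1 Itgb3 stood at -1.53 and Vwf at 0.98. The lone older WT library has no spread of its own, so no call is read from that fit. In spleen MEP 4 of the 7 tested members (Pf4, Itga2b, Itgb3 and Mmrn1) lay below older WT without overlap, with 2 libraries in each group, where 16.3% of all genes did. Mmrn1 was at 7.995 and 13.8, against 29.8 and 189 (log2 -2.73, SE 1.14, adjusted p = 0.999), and at -4.04 without mouse 27265, which leaves 1 older WT library. In whole bone marrow older WT replicate 1 (mouse 27265) held 116 of Mmrn1, 1.97 of Gp6 and 30.9 of Ppbp, where replicate 2 held 504, 46.8 and 1094.

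Across the 63 libraries the members followed each other in part, by Pearson's r of log2(value + 1) after the mean of each population was subtracted. The means of the disease states were not subtracted, so r also reflects differences between states. Libraries share mice, so no p is given. Pf4, Itga2b and Gp1bb moved together (r = 0.61 between Pf4 and Itga2b, 0.63 between Pf4 and Gp1bb, 0.63 between Itga2b and Gp1bb), as did Itgb3 and Mmrn1 (0.70) and Pf4 and Mmrn1 (0.64). The chains of 1 receptor did not: Gp9 was at -0.345 with Gp1ba and 0.16 with Gp1bb, and Gp1ba at 0.29 with Gp1bb. Gp1ba was closest to Gp5, the remaining chain of that complex (0.77). Gp9 was closest to Fam117a (0.895). Its nearest gene in the annotation is Rab43, 9085 bases away on the other strand, with which it stood at 0.79. Rab43 held 3625 to 9020 in the crisis and young WT spleen MEP libraries, where Gp9 held 51.3 to 385.

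Mmrn1 correlated with the summed B cell list at 0.84 and with Cd93, a receptor of endothelium and early blood cells, at 0.91. Itgb3 correlated with the T and NK cell list at 0.76 and with Ltb, a lymphocyte cytokine gene, at 0.90. Vwf was at 0.69 with the stem cell list. Pf4 was closest to Src (0.84) and Itga2b to Vat1 (0.78). Over all 63 libraries without removal of population means, the genes most like the mean of the 9 members, out of 15930, were Mrvi1 (r = 0.97), Vav3 (0.95), Capn2, Fes, Csf2rb, Treml1, Gng2, Ebi3, Rab31 and Gucy1b1 (0.94 or more each). Treml1, a receptor of platelet alpha granules, is the only one of the 10 that the other lists hold.

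**Figure D5:**
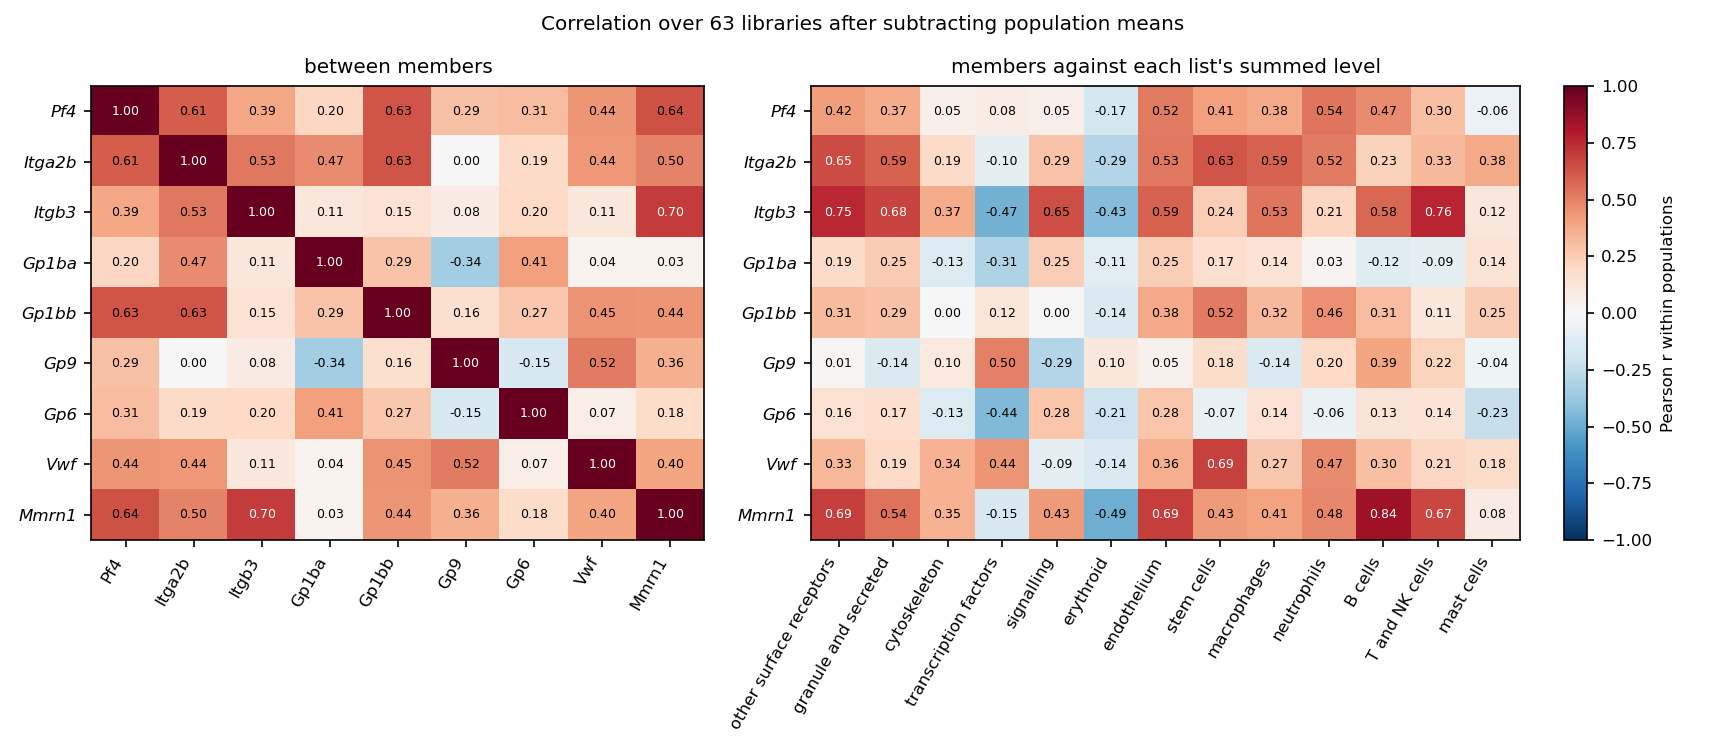
Pearson's r over 63 libraries after population means, but not state means, were subtracted, between the members (left) and between each member and the summed level of 13 marker lists (right); red is positive and blue negative. Mmrn1 with B cells (0.84) and Itgb3 with T and NK cells (0.76) are the highest values on the right, and the row of Gp9 is pale or negative for Itga2b, Itgb3 and Gp1ba.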

How the data were processed

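RNA-seq libraries of whole tissue and sorted cells (KAPA mRNA HyperPrep, per the labels' protocols) were deposited as 2 tables, which list Bowtie2 2.2.0, RSEM, DESeq2 and GRCm38 per the submitters' processing notes. The authors deposited normalised counts per gene (used here as a signal, since they are not whole reads) and a regularised log2 table, which served as an alternative.

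Within a population, libraries were rescaled by the median of their ratios to each gene's geometric mean, since the deposited values differed by log2 factors of -0.918 to 0.518. limma 3.58.1 (R 4.3.3) was fitted on log2(value + 1) over genes with a mean of at least 10, with trended and robust variances, all 4 states of a population in 1 fit and Benjamini-Hochberg adjustment over all genes. Comparisons across populations rescaled libraries together and took the mouse as a random block (correlation 0.277 to 0.549). A fold on this scale understates the change of low genes. With 3 against 3 libraries an exact permutation test cannot go below 0.1, so none is given.

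Libraries held 33.6 to 107.6 M normalised counts (median 50.64), which are sums of normalised values and not read depths. Precision is limited for genes near 0, and these sums do not measure it. Groups came from the labels. 1 whole spleen library with contradicting labels is in no comparison. The 9 genes and the lists were chosen with earlier results of these data known. All 9 were described. From 5 lists of the pathway, at most 3 genes per list and population with the largest fold change among those that passed in crisis against young WT were named, and so were the 10 genes with the highest Pearson r to the members' mean. The proteins of Pf4, Gp9 and Gp1bb, which the same rule names, are not printed here. Alternatives changed the rescaling, the added constant, the filter on low values, the variance model, the controls and the libraries used. Symbols matched 25607 identifiers. The scripts were tested on simulated data.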

Additional observations from a re-analysis of the deposited data

Results flagged for a closer look

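The whole spleen library that the labels put in no group held 2378 normalised counts of Vwf, above the 1655 to 1726 of the young WT spleens and the 1553 of the older WT spleen. It held 1667 of Itgb3 and 7096 of Rasa3, both below the WT spleens. Its mouse has contradicting labels, so the values describe that library only, and whether it was exchanged with the whole spleen of mouse 2726 was not tested.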

How the results depend on the processing

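Every called change in crisis kept its sign under all 16 or 17 alternatives tried, and passed in 10 to 13 of them. Over the results of single genes and alternatives, 2817 of 2908 kept their side of the threshold, 50 lost the call and 41 gained it. Of the results that passed in the main fit or the alternative, 0 reversed direction. Direction was not compared where neither fit passed. The number of members that passed in crisis against young WT moved as follows. In whole bone marrow (main 2) it was 1 on the deposited scale, 0 without trend and robust variances, 1 with older WT added, 3 with equal totals and 3 without mice 2726 and 27265, and 0 to 2 with 1 library left out. In whole spleen (main 1) it was 3 without those mice, 3 when remission and older WT were left out of the fit and 3 with older WT added, 0 with the step-size covariate, and 0 in each of the 6 fits that left out 1 library. In spleen MEP (main 0) it was 3 on the deposited scale and 1 with older WT added. In bone marrow SMP (main 1) it was 0 on the deposited scale, 0 without trend and robust variances and 0 to 3 with 1 library left out. In spleen SMP (main 1) it was 2 on the deposited scale, 3 with older WT added and 0 to 3 with 1 library left out. For remission against crisis it was 1 in whole spleen without those mice, and with 1 library left out 0 to 1 in whole spleen and 0 to 3 in each SMP population. For remission against older WT in whole spleen no count is given, since older WT had 1 library there. For the spleen minus marrow effect it was 3 in whole tissue without those mice, and with 1 library left out 0 to 1 in whole tissue and 0 to 4 in SMP. For spleen against marrow in young WT MEP it was 0 to 1. The cause was not tested.

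Counts over all genes moved as well. With the step-size covariate, 0 genes passed in whole spleen (main 2445) and 1036 in spleen SMP (main 4795) for crisis against young WT, and 588 in bone marrow SMP (main 190) for remission against crisis. With 1 library left out, crisis calls ran from 0 to 2181 in whole bone marrow, from 0 to 238 in whole spleen, from 0 to 3167 in bone marrow SMP and from 0 to 6391 in spleen SMP. For remission against crisis they ran from 0 to 521 in whole spleen, 0 to 2716 in bone marrow SMP and 0 to 1934 in spleen SMP. The spleen minus marrow effect gave 766 to 1591 in whole tissue and 0 to 3769 in SMP. Without mice 2726 and 27265, 7729 genes passed in whole spleen for crisis against young WT. In whole bone marrow 567 of 1386 crisis calls were higher, against 10.3% of 2866 with equal totals, which shifted the median of all genes by -0.259. In whole spleen 451 of 2445 were higher, against 6.55% of 1648 with equal totals (median -0.525). In spleen SMP 2502 of 4795 were higher, against 6.08% of 2304 on the deposited scale (median -0.553), and in bone marrow SMP 570 of 1148, against 83.6% of 281 (median 0.112). On that scale MEP against SMP gave 7.94% of 8509 calls higher in young WT spleen (main 46.2% of 9536).

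No paired analysis was possible between states because each mouse was in 1 state and replicate numbers were given in accession order. Comparisons of populations took the mouse as a block, without which Mmrn1 in young WT marrow, Gp9 in crisis marrow and Vwf in crisis spleen no longer passed for MEP against SMP. Leaving out libraries across populations and the covariate for the 16 of 64 libraries whose low values were multiples of 1 step size were chosen after seeing the data.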
